A study of Capra hircus with 198 samples.

Results

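The 45 genes described here encode the subunits of the ionotropic receptors for GABA and glutamate and the metabotropic glutamate receptors. They were chosen by symbol alone, from 39734 features in a goat expression atlas: 19 GABA-A receptor subunits (GABR), 4 AMPA receptor subunits (GRIA), 7 NMDA receptor subunits (GRIN), 5 kainate receptor subunits (GRIK), 2 delta receptors (GRID) and 8 metabotropic glutamate receptors (GRM). The atlas holds 198 total RNA libraries from 33 tissues of 6 adult female Murciano-Granadina goats, a Spanish dairy breed. The lactating animals were goats 2, 3 and 6, the dry animals goats 54, 64 and 73, and each animal gave 1 library per tissue. The labels give no age, treatment or genotype, so the goats of a group share only breed, sex and state. The tissues were divided into 8 brain regions (frontal neocortex, hippocampus, rhinencephalon, hypothalamus, rostral colliculus, bridge (brainstem), medulla oblongata and cerebellar hemisphere), 3 neuroendocrine glands (pineal gland, adenohypophysis and neurohypophysis) and 22 other tissues.

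GABA is the main inhibitory transmitter of the adult brain and glutamate the main excitatory one. GABA-A receptors are chloride channels built from alpha and beta subunits with a gamma or delta subunit, and the alpha subunit sets the receptor's pharmacology and its place in the cell. AMPA, NMDA and kainate receptors are cation channels of 4 subunits, and the delta receptors organise synapses through cerebellin. The metabotropic receptors signal through G proteins: GRM5, for one, raises calcium, and most of the family lower cyclic AMP.

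Levels are given as CPM, the estimated counts of a gene per 1000000 counts of its library. Library totals ran from 1309071 to 8967448 counts, with a median of 4631625. The hippocampus was shallowest, with a median of 1643125 counts, and there a level below 2.29 CPM could rest on fewer than 3 counts in the shallowest library. By correlation of whole profiles, 24 of 198 libraries lay closest to another tissue than their label. Of these, 4 were brain libraries, 9 were gland libraries, among them all 3 pineal libraries of the lactating goats, and 11 came from other tissues. Neuron markers summed to 346 CPM in brain (range over libraries 52.1 to 708), 120 CPM in the glands and 12.9 CPM elsewhere. The frontal neocortex library of goat 2 held 116 CPM of neuron markers against 281 to 708 in the other 5, and the hippocampus library of goat 3 held 52.1 against 306 to 479. In bulk tissue, fewer cells of a type and less RNA per cell cannot be told apart.

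The 45 receptor genes summed to 279 ± 36.9 CPM in brain (SD over 6 goats), 245 ± 123 CPM in the glands and 75.8 ± 9.601 CPM in the other tissues. The highest tissue mean lay in a brain region for 30 members, in a gland for 7 and in another tissue for 8. The same split over all features is not given, so these counts have no background beside them. The cerebellar hemisphere was the highest tissue for 9 members, the hippocampus for 8, and the frontal neocortex and the pineal gland for 6 each. The members outside this pattern were GABRA3 and GABRE, highest in adrenal medulla, GABRP and GRIN3A in thyroid, GRIN1 in colon, GRM5 in lung, GRIK5 in esophagus and GABRR1 in diaphragm. Of the glands, the neurohypophysis was highest for GRM2, and the pineal gland for GABRA5, GABRR2, GABRR3, GRIK3, GRIN2C and GRM6.

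**Figure D1:**
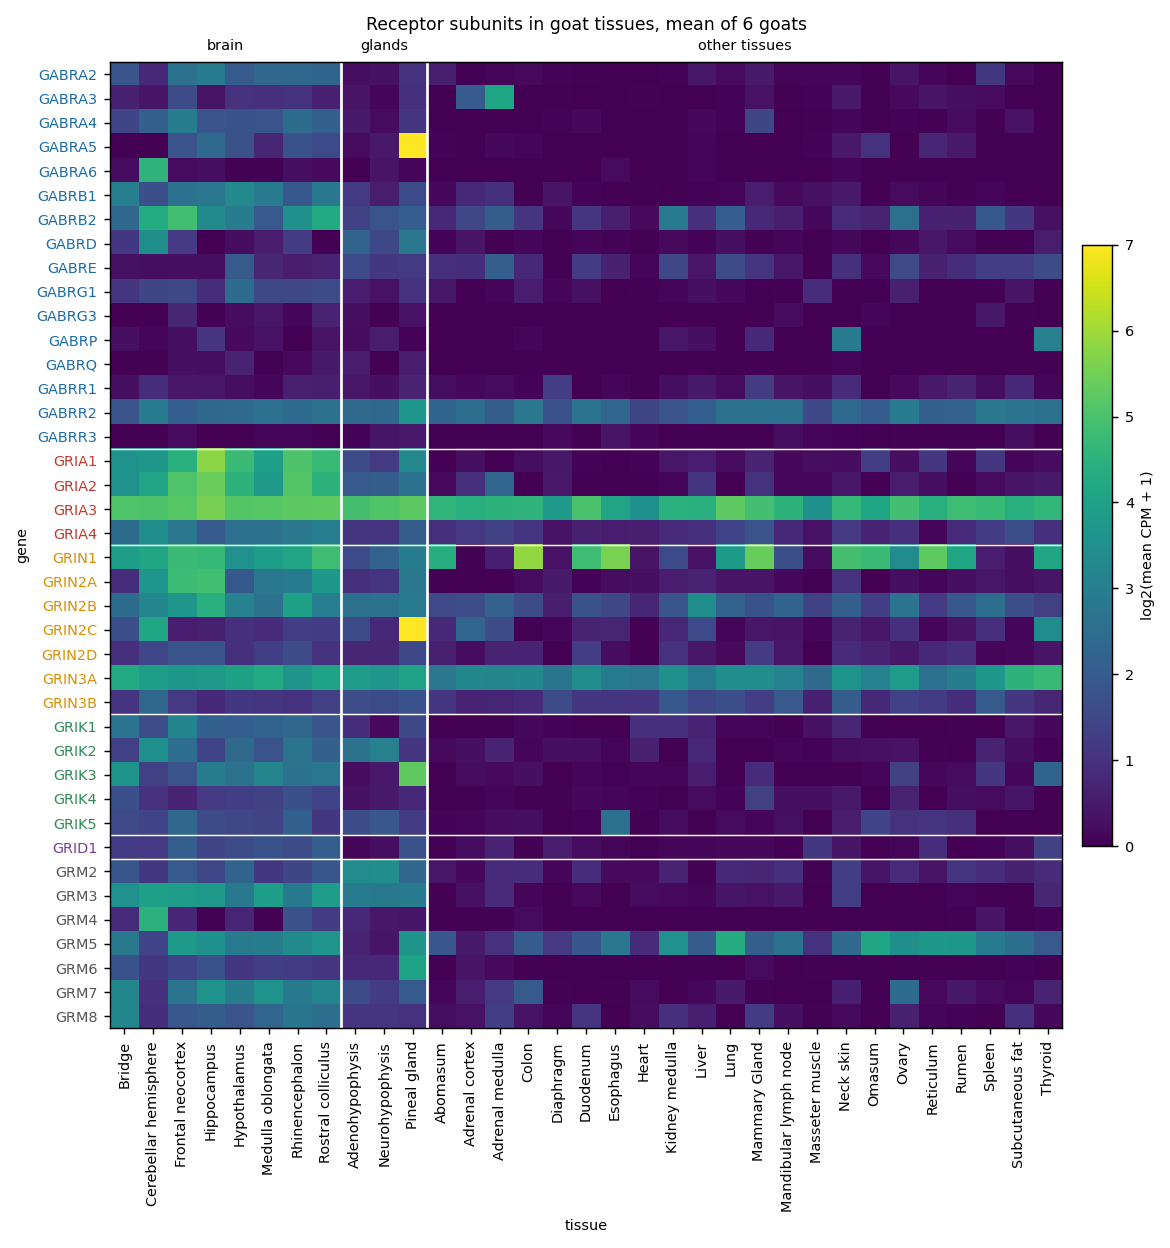
Heat map of the mean level of 40 of the 45 receptor genes in each of 33 tissues, as log2 of the mean CPM over 6 goats plus 1, with tissues on the horizontal axis and gene names coloured by family. Most members are high over the 8 brain regions, while GRIA3, GRIN3A and GRIN1 are also high in many tissues outside the brain.

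How narrowly members were expressed varied within the GABR, GRIA, GRIN and GRM families, and less within GRIK and GRID. In 13 members, all 8 brain regions had a higher mean than any of the 22 other tissues, and in 9 members no region did. GABRA6 and GRM4 were among the 3 members whose 6 libraries of the top tissue all lay above the 192 libraries of other tissues. At the other end, GRIA3, GRIN3A and GABRR2 had counts in all 132 libraries of other tissues, whereas 17 members were at 0 in over 100 of them. Shares over all features are not given for these counts of members. The tissue specificity index tau in the authors' deposited table runs from 0 for even expression to 1 for a single tissue. It reached at least 0.8 in 20 of the 43 members listed, 46.5%, against 27.4% of all listed features, and the medians were 0.79 and 0.50. In that deposited table GABRA6 and GABRG3 stood at 1.0, GABRP at 0.97 and GRM4 at 0.96, whereas GRIA3 stood at 0.136, GRIN3A at 0.267 and GABRR2 at 0.304. The GABRG3 value rests on few counts: the gene was at 0 in 33 of 48 brain libraries. It averaged 0.680 CPM in frontal neocortex and 0.600 CPM in rostral colliculus.

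The first comparison asked which receptor genes were higher in brain. Counts were summed per goat over the 8 brain libraries and over the 22 libraries of other tissues, and the sums were compared over 6 goats each with edgeR's quasi-likelihood test at a Benjamini-Hochberg adjusted p of 0.05. Ranges in this comparison are those of the sums, and single tissues can lie outside them. Of the 42 members tested, 35 were higher in brain, where 32.1% of all 31170 features tested were higher, and 1 was lower, where 34.8% of all were lower. The median log2 fold change was 3.41 over the tested members and -0.05 over all features tested. All 5 GRIK, 4 GRIA and 8 GRM genes were higher in brain, with 5 of 7 GRIN genes and 11 of 16 tested GABR genes. GABRG3, GABRQ and GABRR3 had too few counts to test.

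Among the alpha subunits, GABRA6, which marks cerebellar granule cells, ran from 1.41 to 3.85 CPM in brain (median 3.33) and reached at most 0.0485 CPM in the other tissues, a log2 fold change of 7.58 ± 0.58 (SE, edgeR adjusted p = 3.11e-08). The ranges did not overlap. GABRA4, found in extrasynaptic receptors, was higher by 4.86 on the log2 scale, GABRA2 by 4.4 and GABRA5 by 3.48, again with no overlap between brain and other tissues. GABRA3 did not follow them in this test. It ran from 0.334 to 1.76 CPM in brain (median 0.815) and from 0.286 to 2.49 CPM elsewhere (median 0.736), and its log2 difference of -0.21 ± 0.53 was not called (edgeR adjusted p = 0.74). The ranges overlapped, and 3 of 6 goats had the higher value in brain. Its highest tissue means were 16.2 CPM in adrenal medulla and 3.04 CPM in adrenal cortex, and its highest brain region averaged 2.04 CPM. By limma on mean log2 CPM per goat, where each tissue weighs the same, GABRA3 was called higher in brain (0.70, adjusted p = 0.00245).

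The beta subunits form the GABA binding site with alpha. GABRB2 ran from 8.72 to 15.9 CPM in brain (median 13.7) and from 1.02 to 1.98 CPM elsewhere (median 1.40), a log2 fold change of 3.09 ± 0.21 (edgeR adjusted p = 7.29e-09). No goat's brain value fell within the other-tissue range. GABRB1 was higher by 4.88 ± 0.22, the gamma subunit gene GABRG1 by 3.62 and GABRD, the extrasynaptic delta subunit, by 4.22 ± 0.60.

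The remaining GABA-A subunits did not share this pattern. GABRP, the pi subunit known from epithelia, ran from 0 to 0.431 CPM in brain (median 0.155) and from 0.126 to 1.05 CPM in the other tissues (median 0.703). Its log2 fold change was -1.74 ± 0.71 (edgeR adjusted p = 0.0412); it was lower in brain in 5 of 6 goats, the ranges overlapped, and the adjusted p rose to 0.12, 0.0523 and 0.16 with goat 2, 54 or 73 left out, to 0.0544 over features outside the lncRNA annotation and to 0.753 by limma on mean log2 CPM per goat. GABRE, the epsilon subunit, ran from 0.167 to 1.35 CPM (median 0.750) against 0.628 to 1.30 (median 0.941) and was not called (-0.52 ± 0.36, adjusted p = 0.218), although limma on mean log2 CPM per goat called it lower (-0.40, adjusted p = 0.0179). The rho subunits, which form the GABA-C type of receptor known from retina, did not differ by this test. GABRR2 ran from 3.25 to 5.67 CPM in brain (median 4.14) and from 3.13 to 5.53 CPM elsewhere (median 3.60; 0.04 ± 0.14, edgeR adjusted p = 0.821), and GABRR1 from 0.139 to 0.716 against 0.191 to 0.563 CPM (medians 0.348 and 0.241; 0.05 ± 0.41, adjusted p = 0.92). The ranges of GABRE, GABRR1 and GABRR2 overlapped. The untested GABRG3 averaged 0.252 CPM in brain and 0.0267 CPM elsewhere, GABRQ 0.209 and 0.00341 CPM, and GABRR3 0.0468 and 0.0467 CPM.

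The AMPA receptor genes, which carry fast excitatory transmission, split into 3 that were far higher in brain and 1, GRIA3, that was counted broadly. In the RefSeq annotation GRIA3 overlaps DGKK, CCNB3, AKAP4 and CLCN5, among other genes. The part of their reads in the GRIA3 counts was not tested. GRIA1 ran from 17.5 to 29.9 CPM in brain (median 22.3) and from 0.169 to 0.614 CPM elsewhere (median 0.284), a log2 fold change of 6.01 ± 0.29 (edgeR adjusted p = 2.64e-10). GRIA2, the subunit that limits calcium entry, ran from 14.9 to 34.0 CPM against 0.153 to 0.702 (medians 24.3 and 0.436; 5.62 ± 0.34, adjusted p = 2.74e-09), and GRIA4 was higher by 2.60. GRIA3 ran from 31.5 to 40.8 CPM in brain (median 34.8) and from 19.6 to 25.2 CPM elsewhere (median 20.5). That difference of 0.66 ± 0.08 on the log2 scale was also called (edgeR adjusted p = 4.31e-06), and neither GRIA1, GRIA2 nor GRIA3 had overlapping ranges.

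The NMDA receptor genes had the smallest family median, 1.48 on the log2 scale. GRIN2A, which encodes the glutamate-binding subunit that predominates in the mature forebrain, ran from 6.71 to 17.8 CPM in brain (median 9.64) and from 0.105 to 0.440 CPM elsewhere (median 0.176), a log2 fold change of 5.53 ± 0.34 (edgeR adjusted p = 2.65e-09). The differences of GRIN2B, GRIN2D and GRIN2C were 1.69, 1.65 and 1.48, with brain above the other tissues in all 6 goats. GRIN1, which encodes the glycine-binding subunit that every NMDA receptor needs, ran from 13.5 to 27.5 CPM in brain (median 18.3) and from 11.9 to 22.9 CPM elsewhere (median 13.1). The ranges overlapped, and the difference of 0.24 ± 0.17 was not called (edgeR adjusted p = 0.224). It was called without goat 2 (0.44, adjusted p = 0.0149), with the deposited offsets (0.39, adjusted p = 0.0493) and by limma on mean log2 CPM per goat (1.87, adjusted p = 4.02e-07), where each tissue weighs the same. GRIN3A, a modulatory subunit that lowers calcium entry, ran from 12.9 to 16.2 CPM in brain (median 14.8) against 7.18 to 11.8 (median 8.79; 0.60 ± 0.09, edgeR adjusted p = 2.44e-05). Its ranges did not overlap. GRIN3B ran from 1.19 to 2.08 CPM (median 1.51) against 0.572 to 2.29 (median 1.503), with a difference of 0.02 ± 0.29 (adjusted p = 0.955) and overlapping ranges.

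The kainate receptor genes, which act at and beside synapses to tune release, were higher in brain without exception. GRIK3 ran from 5.15 to 6.72 CPM in brain (median 5.43) and from 0.217 to 0.745 CPM elsewhere (median 0.290; 3.91 ± 0.25, edgeR adjusted p = 4.69e-09). GRIK2 ran from 3.54 to 5.50 CPM (median 4.51) against 0.121 to 0.307 (median 0.186; 4.33 ± 0.23, adjusted p = 6.11e-10), and GRIK1 from 2.34 to 5.21 CPM (median 4.51) against 0.0388 to 0.521 (median 0.174; 4.20 ± 0.42). The brain values of these 3 genes lay clear of the other-tissue values in every goat, and the high-affinity subunit genes GRIK4 and GRIK5 were higher by 2.95 and 2.05. The delta receptor gene GRID1 ran from 1.95 to 2.68 CPM against 0.142 to 0.408 (medians 2.28 and 0.280; 2.92 ± 0.29).

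The metabotropic receptor genes had the highest family median, 4.54 on the log2 scale. GRM3, known from astrocytes and neurons, ran from 9.85 to 12.9 CPM in brain (median 11.2) against 0.0438 to 0.431 CPM (median 0.203; 5.67 ± 0.36, edgeR adjusted p = 4.35e-09). The presynaptic receptor GRM7 ran from 5.60 to 8.02 CPM (median 7.15) against 0.184 to 1.44 (median 0.338; 3.65 ± 0.43, adjusted p = 3.14e-06). GRM4 was higher by 6.97, GRM6, the receptor of retinal ON bipolar cells, by 5.44, GRM8 by 3.35 and GRM2 by 2.03. GRM5 differed least: it ran from 4.76 to 10.02 CPM in brain (median 8.46) and from 5.29 to 6.27 CPM elsewhere (median 5.46). Its difference of 0.41 ± 0.14 was called (edgeR adjusted p = 0.0188) and was positive in 5 of 6 goats, with overlapping ranges, but the adjusted p was 0.117, 0.081, 0.0591 and 0.0599 with goat 3, 6, 54 or 73 left out, and 0.0616 with the deposited offsets.

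**Figure D2:**
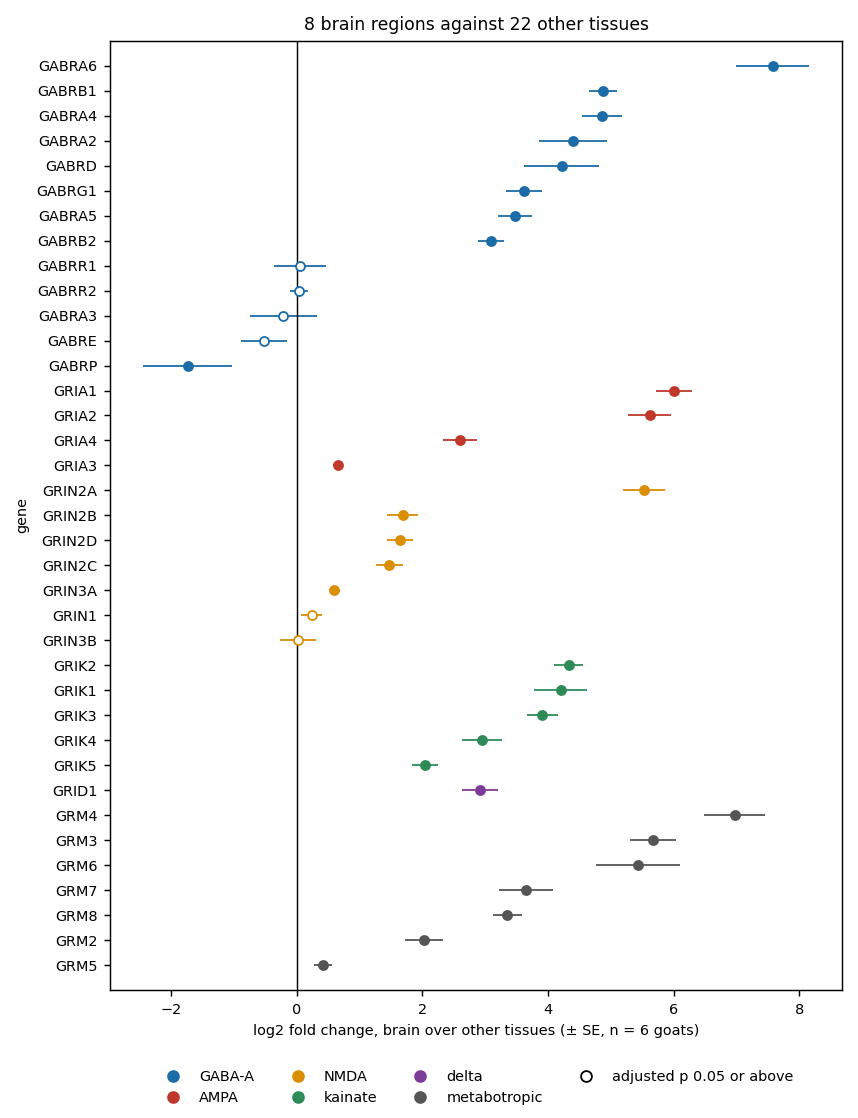
Log2 fold change of brain against the 22 other tissues, with its SE, for 37 of the 42 members tested, coloured by family; filled points passed the adjusted p of 0.05 in edgeR. GABRA6 and GRM4 lie farthest to the right, and GRIN1, GRIN3B, GABRR1, GABRR2, GABRA3 and GABRE lie near 0 with open points.

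The genes that make, move, anchor and clear these transmitters were taken from 5 lists. Of 8 genes for GABA synthesis, packaging, uptake and breakdown, 7 were higher in brain and 1 was lower, with GAD1, the GABA-synthesising enzyme, higher by 8.82 on the log2 scale and ALDH5A1, which degrades GABA further, lower (-0.36). Of 12 tested genes for GABA-A anchoring and GABA-B receptors, 7 were higher and 3 lower, with GABBR1 at 3.57 and CLPTM1, which holds GABA-A subunits in the endoplasmic reticulum, at -1.31. Of 10 genes for glutamate packaging, uptake and recycling, 6 were higher, led by the vesicular transporters SLC17A6 at 7.47 and SLC17A7 at 5.24, and 2 were lower. Scaffolds and synapse organisers had 17 of 26 higher and 3 lower, with CBLN1, a cerebellin, at 7.62. Auxiliary subunits of the ionotropic glutamate receptors had 14 of 16 higher and 0 lower, with CACNG8 at 7.86, and the list medians lay between 1.43 and 3.74. Neuron markers moved the same way, with 9 of 9 tested higher in brain, and their part in these differences was not tested.

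Each region was then set against the same goats' other 7 regions summed. Over 315 tests of a member in a region, 24 were higher (5% over all features and regions) and 52 lower (5.09%). The cerebellar hemisphere differed most: 10 of 39 tested members were higher, where 17.6% of all features were higher, and 14 were lower, where 19% were lower. GABRA6 ran from 11.1 to 31.0 CPM in cerebellum (median 26.3) and reached at most 0.286 CPM in the other regions (log2 fold change 7.22 ± 0.44, edgeR adjusted p = 2.22e-10). GRM4, a presynaptic receptor of granule cell fibres, ran from 9.33 to 39.8 CPM (median 17.9) against 0.477 to 1.14 (median 0.960; 4.32 ± 0.29, adjusted p = 9.90e-10). GABRD, the partner of GABRA6 in tonic inhibition, ran from 4.89 to 18.4 CPM (median 9.14) against 0.127 to 1.14 (median 0.704; 3.66 ± 0.37, adjusted p = 2.27e-07). For each of the 3 genes, every cerebellar library exceeded every sum of the other regions. GRIN2C, the NMDA subunit of granule cells, ran from 9.49 to 25.5 CPM (median 16.4) against 0.668 to 1.63 (median 1.10; 3.64 ± 0.26, adjusted p = 1.73e-09). GRIN3B was higher by 1.59, GRIK2 by 1.33 and GRIA4 by 0.70, the last not called without goat 6 or 54 (adjusted p 0.0665 and 0.0702). The 8 markers of granule and Purkinje cells were all higher in the same libraries, and their part in these differences was not tested.

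Other members were low in cerebellum. GABRA5, the extrasynaptic alpha subunit known from hippocampus, had 0 counts in all 6 cerebellar libraries against 1.40 to 2.17 CPM in the other regions, at least 15.8-fold lower with a floor of 3 counts over the group. GRM7 ran from 0 to 2.53 CPM (median 0.673) against 6.33 to 8.79 (median 8; -3.25 ± 0.36, edgeR adjusted p = 8.16e-07). GRM5 ran from 0.222 to 4.90 CPM (median 1.07) against 5.41 to 11.3 (median 9.16; -2.60 ± 0.41, adjusted p = 4.70e-05). For these 3 genes the cerebellar libraries lay below every goat's sum of the other regions. GRM8 and GABRA2 differed by -2.58 each, GRIK3 by -2.28, GABRB1 by -1.62, GRIA1 by -1.2 and GRIA3, the smallest called, by -0.37, a call lost without goat 3 or 54 (adjusted p 0.0596 and 0.0899). Oligodendrocyte markers were lower in cerebellum for 7 of 8 genes and astrocyte markers for 6 of 6, also not tested as a part of these results. Of the companion genes, CBLN1 averaged 33.2 CPM in cerebellum against 0.702 in the other regions (5.34), the kainate auxiliary subunit gene NETO2 21.3 against 5.22 (1.83) and the Purkinje cell transporter gene SLC1A6 5.62 against 1.65 (1.57), and of the 13 auxiliary subunit genes tested, 7 were lower.

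**Figure D3:**
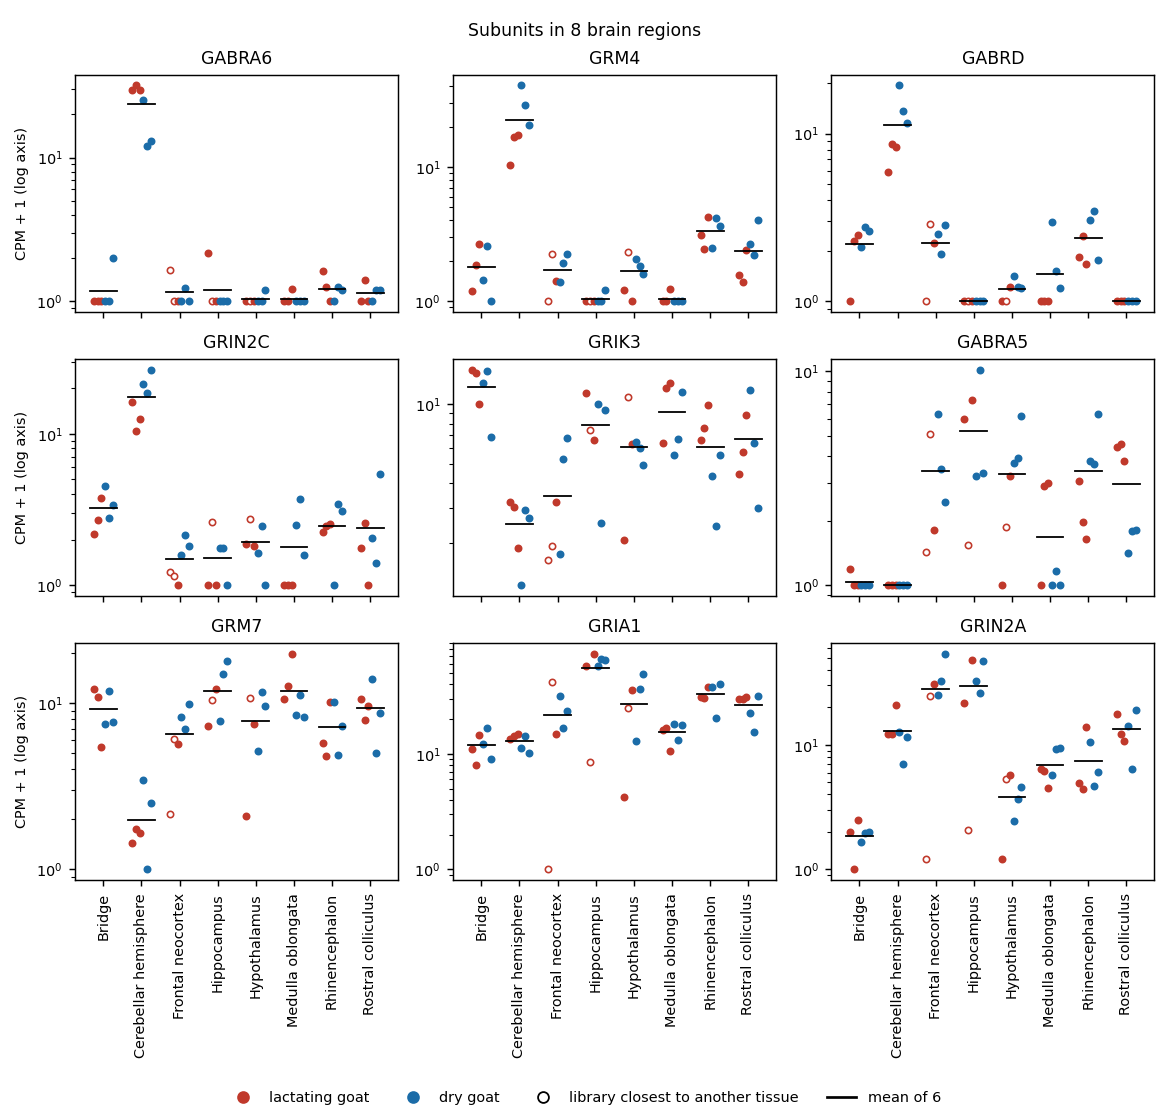
CPM plus 1 on a log axis for 9 receptor genes in the 8 brain regions, 1 point a library, red for lactating and blue for dry goats, open where the library lay closest to another tissue, with a line at the mean of 6. GABRA6, GRM4, GABRD and GRIN2C stand highest in the cerebellar hemisphere, where GABRA5 is at 0 and GRM7 lowest, and 1 frontal neocortex and 1 hippocampus library fall far below the rest for GRIN2A.

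Because the cerebellum is one of the 7 regions in every other region's comparator, members high or low in cerebellum shift the values of the other regions. With the cerebellum left out of the comparator, an alternative added after seeing the data, the 7 other regions had 12 pairs of a member and a region higher (2.59% over all features) and 18 lower (2.55%), in place of 14 and 38. Of those 52 calls, 26 were kept, 14 were lost, and 12, of GABRA6, GABRD or GRM4, then had too few counts to test. GRIN2C in the bridge (1.305, edgeR adjusted p = 0.0487) and GRM4 in the rhinencephalon (1.78, adjusted p = 0.0077) were then called higher, and GRIN2B in the medulla (-0.96, adjusted p = 0.0462) and GRIN3A in the rhinencephalon (-0.51, adjusted p = 0.0496) lower. The mean brain level of GABRA6 was 2.93 CPM over 8 regions and 0.132 CPM over the 7 without cerebellum, and for GRM4 it was 3.42 and 0.850 CPM. GABRD fell from 1.83 to 0.630 CPM by the same step and GRIN2C from 3.05 to 1.11 CPM. Calls of GABRA6, GABRD, GRM4 or GRIN2C as lower in the regions below rest on that comparator, since none was kept without the cerebellum.

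In the frontal neocortex, 4 of 39 tested members were higher (3.58% of all features) and 3 lower (2.23%), and the members' median log2 difference was 0.51 against 0.000716 over all features. GRIN2A ran from 0.217 to 52.8 CPM (median 27.0) against 5.49 to 12.9 in the other regions (median 7.84; 1.91 ± 0.52, edgeR adjusted p = 0.038), and GABRB2 from 2.60 to 49.4 CPM (median 29.4) against 7.85 to 11.6 (median 10.7; 1.79 ± 0.45, adjusted p = 0.0237). In both genes the lowest value was goat 2's, the library poor in neuron markers, and the other 5 goats lay above their own other regions. GRIK1 was higher by 1.40 (adjusted p = 0.0462), also in 5 of 6 goats. GABRA6, GRIN2C and GRM4 were lower. With goat as a block the 3 lower members stayed called and the 4 higher ones did not, with adjusted p of 0.148 for GRIN2A, 0.13 for GABRB2 and 0.16 for GRIK1. GRIN2A and GRIK1 also lost their calls without goat 3, 6, 54, 64 or 73 (adjusted p 0.108 to 0.14 and 0.067 to 0.238), GABRB2 without goat 3, 6, 54 or 73 (0.0796 to 0.111) and GRM4 without goat 6, 54 or 64 (0.0702 to 0.113). Without the cerebellum in the comparator GRIK1 was not called (1.28, adjusted p = 0.0766). Without goat 2 the 7 calls became 15. A further fit left out the brain libraries closest to another tissue, among them those of goats 2 and 3 from this region. In it 12 members were higher (5.79% of all features) and 4 lower (4.92%), including all 7 of the first calls. Among the added members were GRIK5 at 1.42, GRM5 at 1.19, GABRA4 at 1.14 and GRIN1 at 0.94, with GABRA3, GRID1 and GRIN2D.

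The hippocampus had 3 of 39 tested members higher (1.56% of all features) and 6 lower (2.08%). GRIA1 ran from 7.53 to 72.3 CPM (median 60.5) against 14.5 to 25.3 in the other regions (median 21.1; 1.36 ± 0.28, edgeR adjusted p = 0.00871). GRIN2A ran from 1.08 to 47.0 CPM (median 28.4) against 5.61 to 14.1 (median 9.43; 1.54 ± 0.38, adjusted p = 0.0246), and GRIN2B, the NMDA subunit with slow decay, from 7.53 to 30.9 CPM (median 21.9) against 6.47 to 9.27 (median 8.67; 1.21 ± 0.24, adjusted p = 0.00504). The lowest value of each was goat 3's, in the library with 1142 CPM of oligodendrocyte markers against 152 to 633 in the others, and the other 5 libraries lay above every comparator sum. Lower were GRIA4, in all 6 goats (2.10 to 4.29 CPM against 4.41 to 8.41; -1.0 ± 0.28, adjusted p = 0.0499), GRIK2 (-1.39) and GRIN2C (-2.97). The GRIA4 and GRIK2 calls were lost with goat as a block (adjusted p 0.158 and 0.131), without the cerebellum in the comparator (0.13 and 0.1915) and in each fit that left out 1 goat (0.0774 to 0.133 and 0.0723 to 0.121), and the GRIN2C call without goat 2 or 73 (0.0594 and 0.084). GRIA1 was not called without goat 2, 6 or 64 (adjusted p 0.0504 to 0.0616), nor GRIN2A without goat 2, 6, 54, 64 or 73 (0.0798 to 0.101). GABRD had 0 counts in the 6 libraries, at least 8.56-fold lower with a floor of 3 counts over the group, and its call was lost without goat 73 (adjusted p = 0.0529). GRM4 had 1 count, 47.2-fold lower (95% counting interval 8.46 to 1862), and GABRA6 3 counts, 13.3-fold lower (4.55 to 64.5). A further fit left out the brain libraries closest to another tissue, among them goat 3's hippocampus library. In it 7 members were higher (3.3% of all features) and 6 lower (3.14%), including all 9 of the first calls. Among the added members were GABRA5 at 1.72, GABRA2 at 1.23 and GRIA2 at 1.2.

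In the hypothalamus, 1 of 40 tested members was higher (1.93% of all features) and 7 lower (2.3%). The member that was higher was GABRE, which ran from 0 to 5.42 CPM (median 3.49) against 0.189 to 0.699 in the other regions (median 0.368; 2.84 ± 0.57, edgeR adjusted p = 0.00697). Goat 2 was at 0, and the other 5 goats lay above all comparator sums; neuron markers in goat 2's library were 57.4 CPM against 175 to 369. Without goat 2 the GABRE difference was 2.95 (adjusted p = 0.00132), by limma it was 1.85 and not called (0.0549), and without goat 64 GABRE had too few counts to test. GRIN2A ran from 0.217 to 4.70 CPM (median 3.14) against 7.66 to 19.9 (median 10.8; -2.13 ± 0.36, adjusted p = 0.00181). GRIN2A did not overlap with the goats' sums of the other regions. GRM3 was lower by the smaller difference of -0.96, a call lost without goat 3, 6, 54, 64 or 73 (adjusted p 0.0511 to 0.095). GABRD (-3.54), GRM4 (-2.51), GRIN2C (-1.86) and GABRA6, with 1 count in 6 libraries, were also lower, GRIN2C not with goat as a block (adjusted p = 0.0686) or without goat 6, 54 or 64 (0.0571 to 0.0891). Without the brain libraries closest to another tissue, among them goat 3's hypothalamus library, which lay closest to medulla, all 8 calls were kept. Of the neuron markers, 6 of 9 were lower in hypothalamus, and their part was not tested.

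The bridge (brainstem) and the medulla oblongata shared low GABRB2. In the bridge, 3 of 39 tested members were higher (5.67% of all features) and 11 lower (5.48%). GRIK3 ran from 5.82 to 13.9 CPM (median 12.6) against 3.70 to 6.10 (median 4.88; 1.32 ± 0.20, edgeR adjusted p = 0.000161), above its own other regions in all 6 goats. GRM8, a presynaptic receptor, ran from 2.81 to 11.9 CPM (median 8.96) against 2.39 to 4.24 (median 3.55; 1.37 ± 0.27, adjusted p = 0.00172), higher in 5 of 6 goats, and GRIN3A was higher by 0.46. The GRIN3A call was lost without the cerebellum in the comparator (0.41, adjusted p = 0.0831) and without goat 2, 54, 64 or 73 (0.0681 to 0.143). GRIN2A ran from 0 to 1.47 CPM (median 0.981) against 7.65 to 20.3 (median 11.03; -3.71 ± 0.36, adjusted p = 7.78e-07), with no overlap. GABRA5 had 1 count in the 6 bridge libraries, 55.4-fold lower (95% counting interval 9.94 to 2188). GABRB2 (-1.68), GRIK2 (-1.54), GRIA2 (-1.11), GRIA1 (-1.03) and GRIN2B (-1.01) were lower as well, with GABRA6 and GRM4. GAD1 averaged 0.316 CPM in the bridge against 21.7 CPM in the other regions (-6.03), and 7 of 8 oligodendrocyte markers were higher there.

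In the medulla, 1 of 40 tested members was higher (4.19% of all features) and 7 lower (4.47%). GRM7 ran from 7.29 to 18.8 CPM (median 9.92) against 5.02 to 8.13 (median 6.37; 0.77 ± 0.21, edgeR adjusted p = 0.028), higher in 5 of 6 goats with overlapping ranges. That call was lost with goat as a block (0.73, adjusted p = 0.0541), without the cerebellum in the comparator (0.54, adjusted p = 0.153) and without goat 2, 3, 6 or 64 (0.0637 to 0.15). GABRB2 ran from 0.768 to 6.93 CPM (median 2.16) against 10.1 to 18.2 (median 15.4; adjusted p = 0.000234). Every medulla value of GABRB2 lay below every comparator sum. GRIA2 (-0.96) and GRIA1 (-0.69) were lower too, GRIA1 not without goat 6 (adjusted p = 0.052). GRM4 and GABRA6 had 1 count each over the 6 medulla libraries, 117-fold and 99.2-fold lower (95% counting intervals 21.0 to 4618 and 17.8 to 3920). As in the bridge, 7 of 8 oligodendrocyte markers were higher, and their part was not tested.

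The rhinencephalon and the rostral colliculus differed least. In the rhinencephalon, 2 of 39 tested members were higher (3.83% of all features) and 2 lower (3.18%), shares near the background. GRIN2B ran from 11.1 to 20.4 CPM (median 14.9) against 6.09 to 9.46 (median 8.54). The difference was 0.86 ± 0.16 (edgeR adjusted p = 0.0023), and all 6 libraries lay above every goat's sum of the other regions. GRIA1 was higher by 0.64, though not called without the cerebellum in the comparator (0.50, adjusted p = 0.138) or without goat 2, 3, 6, 54 or 73 (0.0763 to 0.159), and GABRA6 was among the lower members (-3.89), while GAD1 averaged 65.9 CPM there against 11.8 (2.5). In the rostral colliculus, 12 of 40 tested members had an unadjusted edgeR p under 0.05 in either direction, as had 3571 of all 25132 features tested. At the adjusted threshold of edgeR, 0 of the 40 were higher (1.71% of all features) and 2 were lower (2.1%). Those were GABRD, with 0 counts in 6 libraries, at least 21.3-fold lower, and GABRA6 (-4.50); with goat as a block there were 5 calls in either direction.

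The make-up of each receptor class, as the share of counts in a class taken by each subunit, also differed between regions. These shares carry no correction for transcript length, so only the same subunit is compared between regions, and no test was made. GABRA6 held 51.7 ± 11.8% (SD, n = 6) of alpha counts in cerebellum. GABRA2 held 42.0 ± 10.5% in the medulla, 38.8 ± 10.5% in the bridge and 30.2 ± 16.9% in the hippocampus. GABRA5 held 24.6 ± 11.1% of alpha counts in hippocampus and none in cerebellum. Among GRIN2 counts, GRIN2C held 43.0 ± 13.8% in cerebellum, GRIN2A 55.9 ± 26.8% in frontal neocortex, and GRIN2B 61.0 ± 13.8% in hypothalamus and 60.6 ± 11.9% in rhinencephalon. GRIK2 held 73.5 ± 6.0% of kainate counts in cerebellum, and GRIK3 61.6 ± 9.6% in the bridge.

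The same genes were then compared between the 25 tissues outside the brain, each against the same goats' other 24 summed. Ranges given for the other tissues are those of these sums, and libraries of a single tissue can lie outside them. Over 790 tests of a member in a tissue, 83 were higher, against 11.4% over all features and tissues, and 246 were lower, against 18.4%. With goat as a block the 83 became 52. The 3 glands gave 43 of the 83, and the other 40, in 24 members, were spread over 20 tissues, with none in abomasum (4.38% of all features) or mandibular lymph node (15.6%).

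The adenohypophysis had 10 of 36 tested members higher (16.4% of all features) and the neurohypophysis 9 of 37 (17.1%). GRIK2 ran from 3.62 to 10.3 CPM in the neurohypophysis (median 8.34) against 0.162 to 0.748 elsewhere (median 0.420; 3.74 ± 0.36, edgeR adjusted p = 5.49e-07), and from 1.55 to 7.61 CPM in the adenohypophysis (median 5.30). GRM2, a presynaptic receptor, ran from 4.35 to 17.99 CPM in the neurohypophysis (median 8.74; 2.98 ± 0.28) and from 3.72 to 14.6 CPM in the adenohypophysis (median 9.64; 2.91 ± 0.31). None of these ranges overlapped with the goats' sums of the other tissues. Between the lobes themselves, the ranges overlapped for GRIK2 and for GRM2. GRM3 was called in both lobes as well, at 2.80 in the neurohypophysis and 3.01 in the adenohypophysis. The lobes themselves were not cleanly separated: pituitary hormone markers summed to 291 to 2307 CPM in the adenohypophysis and 616 to 2003 CPM in the neurohypophysis, and 6 of the 12 pituitary libraries lay closest to the other lobe. Without the libraries closest to another tissue, GRIK2, GRM2 and GRM3 stayed called in both lobes, at 4.15, 2.97 and 4.39 in the neurohypophysis and 3.48, 3.70 and 2.72 in the adenohypophysis (largest edgeR adjusted p 0.0058).

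The pineal gland had 24 of 37 tested members higher (17.8% of all features) and 0 lower, with a median log2 difference of 1.79 against -0.12 over all features, but its libraries fell into groups by state. GABRA5 stood at 285, 250 and 217 CPM in dry goats 54, 64 and 73, and at 2.01, 1.88 and 0.419 CPM in lactating goats 2, 3 and 6. GRIN2C stood at 266, 282 and 220 CPM in the dry goats and at 0.201, 2.92 and 0 CPM in the lactating goats. GRIK3 stood at 65.0, 76.0 and 78.3 CPM against 5.62, 2.71 and 1.05 CPM. For these 3 genes, the dry pineal libraries stood above every other library of the atlas. GRM6 followed with 26.6, 18.9 and 45.1 CPM against 2.21, 0.626 and 0.210 CPM, GABRR2 with 17.1, 21.6 and 24.2 CPM against 2.09 to 2.72 CPM, and GABRD with 13.5, 11.4 and 9.49 CPM against at most 0.835 CPM. GRM3 went the other way, with 11.7, 6.05 and 19.1 CPM in the lactating and at most 0.993 CPM in the dry libraries. As members higher than in the other tissues, GRIN2C and GRM3 lost their calls with goat as a block (adjusted p 0.128 and 0.0916).

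The pinealocyte markers moved with these genes. They summed to 99.0 to 183 CPM in the 3 dry libraries and to 0 to 0.835 CPM in the 3 lactating ones, where TPH1, ASMT, CRX and SAG were all near 0. In the dry libraries TPH1, the first enzyme of melatonin synthesis, stood at 57.1 to 125 CPM and SAG, a photoreceptor arrestin, at 30.0 to 35.6 CPM, whereas AANAT was at 0 in 5 of 6 pineal libraries and OPN4 in all 6. The lactating libraries lay closest to hypothalamus or rhinencephalon and held 30.0 to 304 CPM of neuron markers against 90.8 to 134 CPM in the dry ones. Without the libraries closest to another tissue, 19 members were higher in the pineal gland (19.1% of all features) and 1 was lower. Of the 19, 15 were among the 24. That fit left out the 3 lactating pineal libraries and also libraries of the comparator tissues. Whether these 3 libraries differ by state or by what was dissected cannot be told apart.

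**Figure D4:**
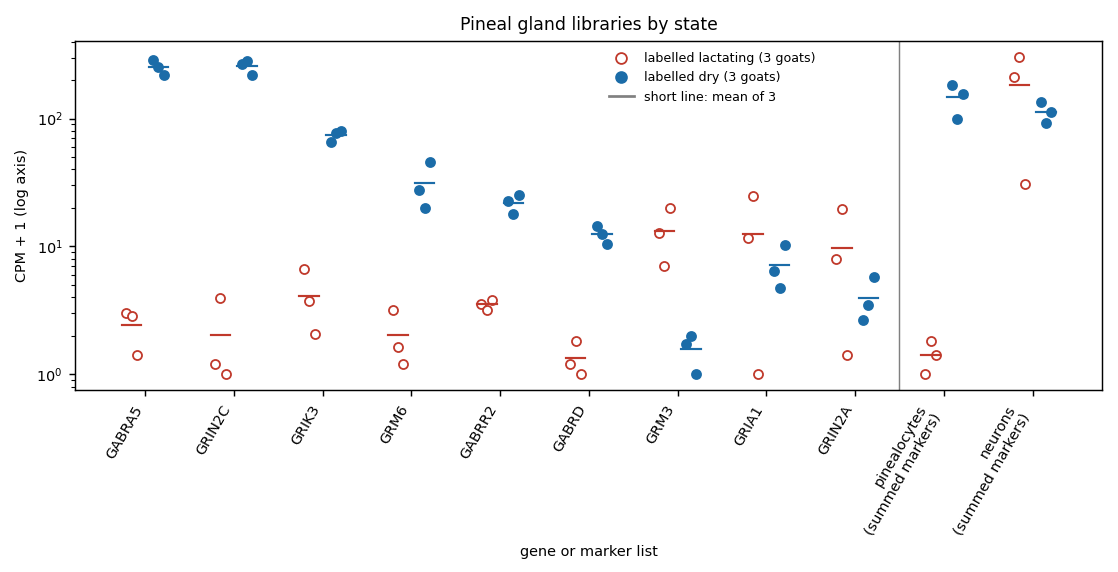
CPM of 9 receptor genes and the summed CPM of the pinealocyte and neuron markers in the 6 pineal libraries, 3 from lactating and 3 from dry goats, 1 point a library. GABRA5, GRIN2C, GRIK3, GRM6, GABRR2 and GABRD are high in the dry libraries, as are the pinealocyte markers, while GRM3 is high in the lactating ones.

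Outside brain and glands, few members were called higher in each tissue. The share of tested members called higher was above that of all features only in adrenal medulla, esophagus and mammary gland. In the adrenal medulla, 5 of 30 tested members were higher (8.39% of all features), and GABRA3 led with 16.5, 9.05 and 26.9 CPM in goats 2, 3 and 6 and 42.2, 0.368 and 2.56 CPM in goats 54, 64 and 73, against at most 0.543 CPM in the other tissues (6.03 ± 0.79, edgeR adjusted p = 3.44e-05). Each goat's adrenal medulla value exceeded its own sum, though the low library of goat 64 fell within the range of the sums. In adrenal cortex GABRA3 stood at 7.82, 3.65 and 3.085 CPM in goats 54, 64 and 73. In goats 64 and 73 that was above the adrenal medulla of the same goat. The summed markers of chromaffin cells and peripheral neurons were 826, 53.6 and 691 CPM in goats 2, 3 and 6 and 1140, 139 and 106 CPM in goats 54, 64 and 73, and the library of goat 64 lay closest to adrenal cortex. GABRE reached 9.79 CPM in goat 54 and was 0.184 CPM in goat 64 (1.95 ± 0.55), and its call was lost without goat 6 or 54 (edgeR adjusted p 0.0515 and 0.147). GRIA2 was higher by 2.63 and GABRB1 by 2.0, and in adrenal cortex GABRA3 was higher by 2.08 (2 of 31 tested members there, 15.2% of all features). With goat as a block GABRE and GABRB1 were not called in adrenal medulla (adjusted p 0.13 and 0.166), nor was GABRB1 without goat 64 (0.0567). Without the libraries closest to another tissue, the adrenal medulla values were 6.38 for GABRA3 (adjusted p = 1.41e-05), 2.205 for GABRE (0.00337), 3.41 for GRIA2 (0.00237) and 1.96 for GABRB1 (0.0289), and GABRA3 in adrenal cortex was not called (1.93, 0.0557), as without goat 3, 64 or 73 (0.0599 to 0.0794).

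Along the digestive tract, GRIN1 was called higher in colon, esophagus, reticulum and omasum, and GRM5 in reticulum, omasum and rumen. GRIN1 ran from 30.3 to 101 CPM in colon (median 50.5) against 9.79 to 19.4 in the goats' sums of the other tissues (median 10.6; 2.17 ± 0.25, edgeR adjusted p = 9.31e-06; 2 of 32 tested members higher, 8.61% of all features). Colon did not overlap with those sums, but 0 of its libraries stood above all 192 libraries of other tissues. GRIN1 overlaps another gene, LRRC26, in the RefSeq annotation, and the part of LRRC26 reads in the GRIN1 calls outside the brain was not tested. The other member called in colon was GRM7, at 2.93 ± 1.79 CPM (SD, n = 6) against 0.603 ± 0.374 (2.17 ± 0.48, edgeR adjusted p = 0.00376). In colon the neuron markers summed to 7.05 to 18.5 CPM and the epithelial markers to 286 to 740 CPM. In esophagus GRIN1 stood at 110, 82.5 and 0 CPM in goats 2, 3 and 6 and 32.3, 36.6 and 24.01 CPM in goats 54, 64 and 73 (2.27 ± 0.69, adjusted p = 0.0332; 2 of 30, 5.57% of all), and GRIK5 from 0 to 9.83 CPM (median 5.16; 3.74 ± 0.63, adjusted p = 0.00138). Goat 6's esophagus library, at 0 for both, lay closest to diaphragm and held 4.08 CPM of epithelial markers against 20.6 to 52.7 CPM in the others. Without the libraries closest to another tissue, GRIN1 differed by 2.397 (adjusted p = 0.000535) and GRIK5 by 4.34 (1.25e-05) in esophagus, but GRIN1 was not called there with goat as a block (0.1715) or without goat 2, 3, 54, 64 or 73 (0.0788 to 0.101). GRIN1 was also called higher in reticulum (1.76), omasum (1.24) and mammary gland (1.60), where the ranges overlapped with the other tissues. The mammary library of goat 54 lay closest to ovary. Without all libraries closest to another tissue, the GRIN1 difference in mammary gland was 0.95 and not called (edgeR adjusted p = 0.09). With goat as a block GRIN1 was not called in mammary gland or omasum (adjusted p 0.1745 and 0.0514), and leaving out goat 3, 54, 64 or 73 ended the call in mammary gland (0.0547 to 0.134), goat 2, 6, 64 or 73 that in omasum (0.0626 to 0.122) and goat 6 that in reticulum (0.0573).

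GRM5 ran from 15.7 to 23.3 CPM in lung (median 19.1) against 4.50 to 5.65 in the other tissues (median 4.86; 1.68 ± 0.16, edgeR adjusted p = 8.47e-07; 2 of 33 tested members higher, 11.4% of all features). In omasum it ran from 7.48 to 30.0 CPM (median 15.8; 2.04 ± 0.28, adjusted p = 4.47e-05; 3 of 28, 14.3% of all). Both tissues lay above the comparator in every goat with no overlap. GRM5 differed by 1.44 in reticulum (2 of 32 higher, 10.5% of all) and by 1.44 in rumen (1 of 30, 8.35% of all), each in 5 of 6 goats. GRIA3 was higher by 0.49 in lung.

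GABRP, known as an epithelial subunit, was called in thyroid and neck skin. In thyroid it ran from 2.54 to 13.4 CPM (median 5.90) against at most 0.776 (median 0.344; 4.36 ± 0.72, edgeR adjusted p = 0.000185), where 4 of 31 tested members were higher (13.4% of all features). No thyroid library fell within the range of the goats' sums over the other 24 tissues for GABRP. Single neck skin libraries lay within or above the thyroid range, up to 15.1 CPM. GRIN3A, at 16.1 to 45.1 CPM (median 23.7; 1.43 ± 0.20), did not overlap in thyroid either, and GRID1 was higher by 2.27, though not with goat as a block (adjusted p = 0.0748). In neck skin, where 1 of 33 was higher (3.85% of all features), GABRP stood at 6.83, 1.10 and 0 CPM in goats 2, 3 and 6 and 5.20, 10.5 and 15.1 CPM in goats 54, 64 and 73 (4.18 ± 0.82, adjusted p = 0.00459). The epithelial markers were 64.1, 6.59 and 1.08 CPM in goats 2, 3 and 6 and 57.8, 59.5 and 67.5 CPM in goats 54, 64 and 73, so GABRP was lowest where they were lowest; the skin libraries of goats 3 and 6 lay closest to other tissues. Without libraries of that kind the GABRP difference was 4.56 (edgeR adjusted p = 8.06e-05).

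**Figure D5:**
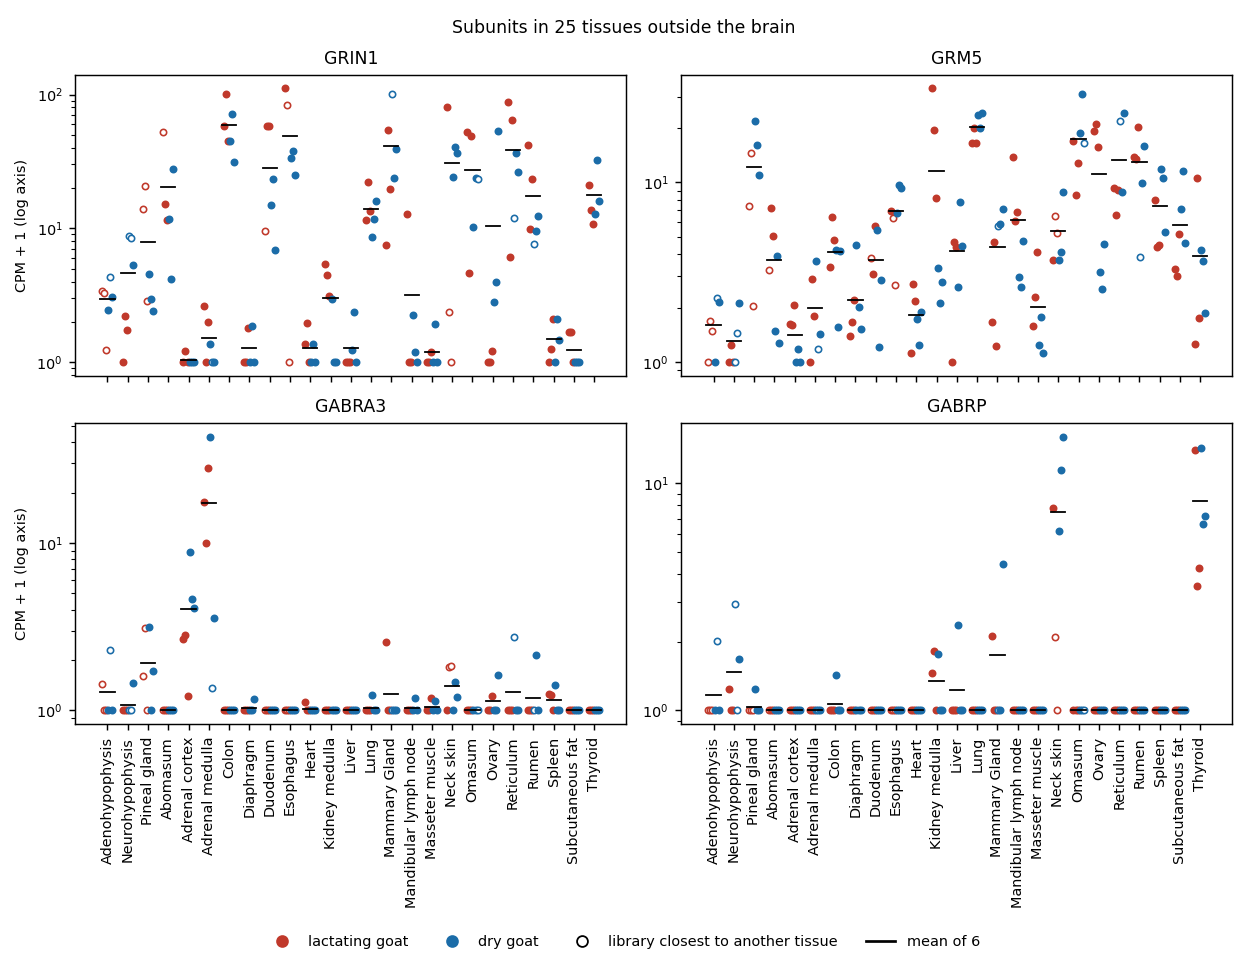
CPM plus 1 on a log axis for GRIN1, GRM5, GABRA3 and GABRP in the 25 tissues outside the brain, 1 point a library, red for lactating and blue for dry goats, open where the library lay closest to another tissue. GRIN1 is highest in colon, GRM5 in lung, GABRA3 in adrenal medulla and GABRP in thyroid, and the points of GRIN1 and GABRP spread widely within several tissues.

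Further calls were spread over other tissues. In mammary gland (3 of 33 higher, 4.61% of all features), GABRA4 ran from 0.391 to 3.99 CPM (median 1.62) against at most 0.225 (4.0 ± 0.71, edgeR adjusted p = 0.00111), with no overlap. In masseter muscle (2 of 32, 16.7% of all), GABRG1 differed by 3.60 and GRID1 by 3.06, and in diaphragm (2 of 29, 15.9% of all) GABRR1 ran from 0.199 to 3.66 CPM (median 1.18; 3.17 ± 0.51). GRIN3A ran from 10.2 to 34.0 CPM in subcutaneous fat (median 20.3; 1.06 ± 0.18; 1 of 32, 8.44% of all), above the same goat's other tissues in 6 of 6 goats. GABRB2 was higher in kidney medulla by 2.47 (1 of 32, 8.83% of all) and in ovary by 1.60 (1 of 32, 8.33% of all). Smaller sets of calls included GRIN2B at 2.03 in liver (2 of 32, 15% of all), GRIK1 at 3.05 in heart (1 of 29, 15.1% of all), GABRA2 at 2.72 in spleen (1 of 30, 12.8% of all), and GRIN2D at 1.51 and GRIA3 at 0.45 in duodenum (2 of 31, 9.04% of all). With goat as a block the calls of GABRB2 in kidney medulla and ovary (adjusted p 0.246 and 0.229), GRIN2B in liver (0.0527) and GRIN2D in duodenum (0.195) were lost. So were they without goat 54 or 73 in kidney medulla, 2, 3 or 6 in ovary, 2, 3 or 73 in liver and 3, 6, 54 or 64 in duodenum (0.051 to 0.163), and that of GRIA3 in duodenum without goat 3, 6 or 73 (0.0538 to 0.0859).

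The last comparison set lactating against dry goats, 3 against 3. State cannot be told apart from any other difference between the 2 sets of goats, and p-values measure the spread between these goats. In brain summed per goat, 0 of 41 tested members were called by edgeR, where 0.138% of all features were higher and 0.12% lower in lactation. DESeq2 called 0 as well. An unadjusted edgeR p under 0.05 was found for 7 of the 41 members and for 3063 of all 28269 features tested. GABRA6 had the smallest of these: 3.66, 3.81 and 3.85 CPM in the lactating goats and 1.41, 1.48 and 2.996 CPM in the dry goats (log2 difference 1.0 ± 0.29, adjusted p = 0.219). The other 6, GABRA3, GABRD, GRIK5, GRIN1, GRIN2C and GRM4, had lower values in lactation.

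Within single tissues, 13 of 390 pairs of a member and a tissue were called, in 4 tissues: 5 were higher in lactation (0.925% over all features and tissues) and 8 lower (0.976%). Of the 13, 7 were the pineal genes already described (3.1% of all features higher and 4.86% lower there). In the pineal gland GABRA5 differed by -7.13, GRIN2C by -7.66, GRIK3 by -4.21, GRM6 by -4.54, GABRD by -4.70, GABRR2 by -2.78 and GRM3 by 4.69, with edgeR adjusted p between 0.000152 and 0.0164, beside the pinealocyte markers that were near 0 in the lactating libraries. Several of these calls were lost without a single goat: GABRD without goat 2, 54, 64 or 73 (adjusted p up to 0.0785), GRM3 without goat 2, 54 or 64 (up to 0.0933) and GRM6 without goat 73 (0.0623).

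In kidney medulla (6.02% of all features higher and 9.11% lower in lactation), GRM5 stood at 7.15, 18.6 and 32.5 CPM in the lactating goats and 1.13, 1.79 and 2.34 CPM in the dry goats (3.08 ± 0.55, edgeR adjusted p = 0.00237). GABRB2 stood at 0.464, 1.26 and 1.64 CPM in lactation against 3.56, 12.1 and 18.4 CPM (-3.63 ± 0.67, adjusted p = 0.00311). GRIN3A stood at 13.9, 14.5 and 17.4 CPM against 3.56, 5.85 and 6.78 CPM (1.14 ± 0.35, adjusted p = 0.0477), a call lost in each of the 6 fits that left out 1 goat (adjusted p 0.053 to 0.133). The groups did not overlap for any of the 3 genes. Epithelial markers in the same libraries were 94.4 to 129 CPM in lactation against 20.9 to 27.5 CPM, and endothelial markers 42.9 to 61.2 against 9.10 to 24.2 CPM. In all, 10 of 11 marker lists did not overlap between the states there, with the list of granule and Purkinje cell genes at 12.6 to 24.8 against 150 to 247.5 CPM, oligodendrocyte markers at 46.9 to 66.4 against 11.1 to 18.5 CPM and astrocyte markers at 20.7 to 26.2 against 58.4 to 88.7 CPM, and their part was not tested.

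In ovary (5.71% higher and 5.97% lower), GRM5 stood at 14.9, 18.3 and 20.3 CPM in the lactating goats and 1.56, 2.16 and 3.54 CPM in the dry goats (2.51 ± 0.40, edgeR adjusted p = 0.00765). GABRB2 stood at 8.35, 8.54 and 9.84 CPM against 0.626, 1.08 and 1.73 CPM (2.57 ± 0.49, adjusted p = 0.0141), the opposite direction from kidney medulla. Neither gene overlapped between states, but the GRM5 call was lost without goat 2 or 3 (adjusted p 0.0511 and 0.0544), and the GABRB2 call without goat 2, 3, 6 or 54 (0.052 to 0.0791). Epithelial markers were 3.17 to 8.08 CPM in the lactating ovaries and 40.2 to 168 CPM in the dry ones, and endothelial markers 28.9 to 46.0 against 5.54 to 16.1 CPM, again not tested. In the neurohypophysis (1.06% higher and 1.67% lower), GRIN1 stood at 0, 0.724 and 1.23 CPM in lactation against 4.35, 7.52 and 7.78 CPM (-3.16 ± 0.79, adjusted p = 0.0463), and that call was lost without any single goat (0.0607 to 0.182), with the deposited offsets (-3.08, 0.0595) and without the libraries closest to another tissue (-2.57, 0.849), among them those of dry goats 54 and 64, which lay closest to adenohypophysis. Of 11 marker lists, 3 did not overlap between states in the neurohypophysis. Microglia markers were 66.0 to 79.4 CPM in lactation against 99.9 to 112 CPM, and astrocyte markers 14.2 to 17.5 against 20.6 to 33.2 CPM. Granule and Purkinje cell markers went the other way, at 9.42 to 10.4 against 5.11 to 8.44 CPM. Neuron markers overlapped, at 72.7 to 120 against 111 to 113 CPM, and the part of these lists was not tested.

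How the genes were counted touches the members unevenly. The deposited values need not be whole, and for GRIA3, GRIN3A and GABRR2 100% of values above 0 were fractional, against 59.2% for GRIA4, 46.2% for GRM7 and 27.5% for GRIN2B. These 3 genes are also the ones with counts in all 132 libraries of other tissues. In the RefSeq annotation of the goat assembly ARS1.2, 14 members overlap another gene, among them GRIN1 with LRRC26 and GRIN3A with PPP3R2. GRIA3 overlaps several, with DGKK, CCNB3, AKAP4 and CLCN5 among them. Reads of such overlapping genes may be divided between them. The table also names 59 lncRNA features after 22 of the members. GRM7-AS1 averaged 813 CPM over the brain regions and 179 CPM over the other tissues, and GRIK1-AS1 222 and 19.8 CPM. GABRE-AS1 was highest in adrenal medulla, at 96.7 CPM, also the highest tissue of its namesake GABRE. The kit kept strand, while the use of strand in counting was not given in the sources used here, and sense and antisense reads of these loci may not be separated.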

How the data were processed

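Total RNA of 33 tissues from 6 goats was sequenced as strand-specific libraries, per the labels' protocols, with STAR, StringTie and edgeR among the tools in the submitters' processing notes. Their versions and roles, the genome build, and whether counting used strand are not given in the sources used here. The authors deposited expected counts (estimated counts per gene and library), of which 37.0% of values above 0 are not whole numbers, together with a deposited table of natural log (ln) offsets per gene and library for transcript length and depth, and a deposited tissue specificity index, tau, a fraction from 0 to 1. Every column of the tables was mapped to its sample by name, and the columns not mapped numbered 0. lncRNA features hold 85.2% of all counts, so CPM of the receptor genes is low in absolute terms.

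Counts were rounded and summed per goat, so that the goat is the replicate, and tested two-sided with edgeR 4.0.16 in R 4.3.3 (TMM, filterByExpr with a minimum count of 10, quasi-likelihood F test, Benjamini-Hochberg over all features tested, threshold 0.05), in 68 comparisons. CPM uses the library total. SE is that of the log2 fold change. Alternatives used DESeq2 1.42.0, limma 3.58.1 with a prior count of 2, RLE size factors, the deposited offsets, no filter, features outside the lncRNA annotation only, and samples left out. Counts were simulated with known changes of 1, 2 and 3 on the log2 scale. The brain comparison recovered 53.7%, 92.3% and 96.9% of 67, 65 and 64 changed genes, over 30768 genes. The lactation comparison in cerebellum recovered 37.1%, 77% and 98.2% of 62, 61 and 55, over 17141 genes. False calls were 7 of 165 and 13 of 137. The simulation drew every sum or library independently and changed few genes. In the real brain comparison 10019 features were higher and 10860 lower, so these shares need not hold there.

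Replicate numbers are goats, so samples of the same number come from the same animal. The deviations of a goat's brain sum and other-tissue sum correlated between 0.00389 and 0.268 over 20482 genes, and 5 of 6 goats correlated best with themselves. The block value is printed beside a named result whose call it ends and a count that it moves by over 1.5 times. The deposited offsets are centred within each gene, so subunit shares are shares of counts and not scaled by length as planned.

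The members and gene lists were chosen with earlier results of these data known. Genes with full values are the 3 of each family highest in brain and those not called higher, up to 4 raised and 3 lowered members per region and up to 3 raised members per other tissue that moved alike in all 6 goats, and every member called between states. Calls of 5 or fewer members outside that rule are named after their values were seen. Tissue identity was checked by Spearman correlation of each library with the tissue means of the other goats. Gene names were matched to RefSeq (ARS1.2), where all 45 members were found. Counting intervals are 95% exact Poisson intervals and, like the floor of 3 counts, cover counting error only. Some members and list genes, which the counts include, are not reported here by name, and sequences are not used.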

Additional observations from a re-analysis of the deposited data

Results flagged for a closer look

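Dixon's test looked for a library far from the other 5 in 45 groups of 6 libraries, each a member in the tissue with its highest mean. It flagged 2, where chance gives about 1 in 20 for groups chosen beforehand. A single high library also raises the mean by which the tissue was chosen, so that rate need not hold here. GABRG3 in frontal neocortex was 3.18 CPM in goat 64, where the next value was 0.381 CPM in goat 54 and the lowest was 0 CPM. GRIA1 in hippocampus was 7.52 CPM in goat 3, where the next value was 56.1 CPM in goat 2 and the highest was 72.3 CPM in goat 6; that library is the one closest to medulla.

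The difference between lactating and dry goats was itself compared between ovary and kidney medulla in one edgeR fit over the 12 libraries. It was added after GABRB2 was seen to move in opposite directions, so its GABRB2 result is not independent of that observation. The fit had no goat term, although the same 6 goats gave both tissues. Of 9 members tested, 2 differed (8.7% of 21409 features did). For GABRB2 the lactation effect in ovary exceeded that in kidney medulla by 6.25 ± 0.89 on the log2 scale (adjusted p = 0.000588). For GRIN1 the difference was -9.83 ± 2.19 (adjusted p = 0.0124). GRIN1 stood at 4.41, 3.48 and 2.10 CPM in the lactating and 1.95, 0 and 0 CPM in the dry kidney medulla, and at 0, 0 and 0.219 CPM in the lactating and 1.80, 2.94 and 51.9 CPM in the dry ovary. The fitted GRIN1 value rests on libraries at 0 and on 1 high ovary library, and is no bound on the fold. GRM5, raised in lactation in both tissues, did not pass this test (-0.53 ± 0.72, adjusted p = 0.736), which does not show that the effects are alike.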

How the results depend on the processing

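Of all calls of members, 34 of 36 kept direction and threshold under every alternative run for brain against other tissues (GABRP and GRM5 did not), 29 of 76 for regions, 167 of 329 for tissues outside the brain and 6 of 13 between states. Limma ended 32 of the 76 and 92 of the 329, and turned 2 of the latter; leaving out the libraries closest to another tissue ended 1 of the 76 and 54 of the 329, and turned GRM3 in the pineal gland (-0.04, adjusted p = 0.971). The replicate block ended 0 of the 36, 9 of the 76 and 95 of the 329. In brain, members that turned direction had no call. GABRA3 was 0.0328 with the replicate block, 0.7005 by limma (called there) and -0.7044 to 0.2945 when single goats were left out, positive without goat 54. GABRR1 was -0.0734 with the deposited offsets and -0.1315 to 0.1673 without single goats, negative without goat 3 or 73. GABRR2 was -0.1002 with the offsets, -0.1163 by limma and -0.1312 to 0.1448 without single goats, negative without goat 6 or 54. GRIN3B was -0.0069 with no filter, -0.0698 with the offsets, -0.0107 by limma and -0.1932 to 0.1811 without single goats, negative without goat 54, 64 or 73.

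Members lower in brain went from 1 to 0 over features outside the lncRNA annotation and 0 to 1 without single goats, and members higher in brain were 34 to 36 without single goats. Region pairs higher went from 24 to 38 without the libraries closest to another tissue and to 12 without cerebellum as comparator (14 to 27 without single goats). Region pairs lower went from 52 to 29 by limma and to 18 without cerebellum (44 to 53). Members called in frontal neocortex went from 7 to 12 by DESeq2, 4 with the offsets, 16 without those libraries, 3 with the replicate block, 0 by limma and 3 without cerebellum (2 to 15 without single goats). The hippocampus went from 9 to 3 by limma and 3 without cerebellum (4 to 11), the hypothalamus from 8 to 3 and 4 (5 to 9), the medulla from 8 to 15 by DESeq2 and 5 without cerebellum (6 to 10), and the rhinencephalon from 4 to 7 by DESeq2 (2 to 5). The rostral colliculus went from 2 to 5 by DESeq2, 4 without those libraries, 5 with the block, 4 by limma and 0 without cerebellum (2 to 4). Pairs outside the brain went from 83 to 52 higher with the replicate block (68 to 78), and from 246 lower to 380 by DESeq2 and 163 by limma (208 to 271). Pairs between states went from 13 to 21 with no filter, and were 6 without the libraries closest to another tissue over the 31 tissues that could be fitted, where all libraries also gave 6 and 5 were shared (GRIN1 in neurohypophysis was lost and GRIN1 in esophagus, 1.61, adjusted p = 0.00514, was added; 9 to 15 without single goats). The pineal gland and adenohypophysis could not be fitted between states without those libraries. Apart from fewer samples or features in an alternative, the cause was not tested.

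The deposited offsets moved the median of all features in brain from -0.05 to -0.21. Under them the share of higher among called features went from 42.8% to 30.9% in hippocampus, 39.0% to 28.9% in colon, 38.8% to 28.5% in kidney medulla, 41.1% to 30.9% in lung, 31.9% to 20.0% in neck skin and 36.4% to 24.8% in ovary. Shares scaled by length were not run, since the offsets hold no absolute length. At the median depth, members under about 1 CPM rest on few counts in a library, and the hippocampus on fewer still.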

Other observations

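Genes that work beside the receptors were also compared between brain regions. In the rostral colliculus, 4 of 8 genes for GABA synthesis, packaging, uptake and breakdown were higher by edgeR (1.71% of all features) and none lower: GAD2, the enzyme that makes GABA for release at terminals, averaged 56.3 ± 9.28 CPM (SD, n = 6) against 33.7 ± 4.11 CPM in the other regions (log2 fold change 0.82 ± 0.12 SE, adjusted p = 0.000161), and GAD1 and SLC6A11, among the others, differed by 1.19 and 1.51. In the hippocampus 3 of the 8 were lower (2.08% of all features), with the vesicular GABA transporter gene SLC32A1 at 0.510 CPM against 5.98 CPM (-3.33 ± 0.48, adjusted p = 0.000279), and in the medulla 4 of 8 were lower (4.47%).

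The vesicular glutamate transporters divided the regions. SLC17A6 averaged 0.121 CPM in cerebellum against 4.39 CPM in the other regions (-5.37 ± 0.52, edgeR adjusted p = 1.38e-07) and had 0 counts in all hippocampus libraries, whereas SLC17A7 averaged 11.7 CPM in hippocampus against 3.96 CPM (1.60 ± 0.43, adjusted p = 0.0436) and had 0 counts in all hypothalamus libraries. GABBR2, a GABA-B receptor subunit gene, averaged 30.5 CPM in hippocampus against 16.8 CPM (0.83 ± 0.18, adjusted p = 0.0113) and 8.24 CPM in rhinencephalon against 18.8 CPM (-1.18 ± 0.22, adjusted p = 0.002). In rhinencephalon 5 of 26 scaffold and organiser genes were higher and 2 lower (3.83% and 3.18% of all features), and in the medulla 0 were higher and 9 lower (4.19% and 4.47%).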
